A study of Caenorhabditis elegans with 59 samples.

Results

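Of the 15363 piRNAs in the 21U-RNA count table, 2919 (19%) had 0 reads in at least 1 of the 4 gravid adult libraries, and these 2919 piRNAs of low or no counts are described here. They were chosen by their counts in those same libraries and fall into 4 classes that do not overlap. In 844 piRNAs no library held a read. A further 497 had 0 reads in both ebax-1(tm2321) libraries and at least 1 read in a wild-type library, and 278 had 0 reads in both wild-type libraries and at least 1 read in an ebax-1(tm2321) library. The remaining 1300 had a 0 in 1 or 2 libraries that did not make up a whole genotype. Because the counts that chose the piRNAs are the counts described, their differences between genotypes are given as values with no test.

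The tested animals were Caenorhabditis elegans adults of strain CZ9907, which carries the null allele ebax-1(tm2321), and the control was the wild-type strain N2. EBAX-1 is the substrate receptor of a Cullin-RING ubiquitin ligase that acts in the decay of Argonaute proteins engaged in target-directed microRNA degradation. Each genotype had 2 libraries of small RNA from whole gravid adults, collected 68 h after plating at 20 °C, which came from earlier published work. Germline-depleted adults, used only in a check of stage, carried glp-4(bn2) with or without ebax-1(tm2321) and were collected after 48 h at 25 °C, so they differ from the gravid adults in age and temperature too. The series holds 59 libraries in all, and piRNA counts were analysed here for these 4. The libraries of a genotype were described as biological replicates, without saying whether the cultures were separate, so p-values measure only the spread between these samples. In whole animals, fewer germ cells and less RNA per cell cannot be told apart.

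Piwi-interacting RNAs (piRNAs) of worms, also called 21U-RNAs, are germline small RNAs of 21 nucleotides that begin with uridine and are bound by the Piwi protein PRG-1. Each is made from its own short transcript, and most of their genes lie in broad clusters on chromosome IV, often in introns or between protein-coding genes and commonly behind a conserved upstream motif. With PRG-1 they recognise germline transcripts, including those of transposons, and direct their silencing through secondary small RNAs. A catalogue of piRNAs therefore lists a very large number of small transcription units, and the question here was which of them gave no read and how that depended on how deeply each library was sequenced.

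The libraries held between 1722996 and 3918670 piRNA counts. The ebax-1(tm2321) libraries had 1722996 counts in replicate 1 and 2703455 in replicate 2, against 2088539 and 3918670 in the wild-type replicates 1 and 2. As a check of the labelled stage, the germline and embryo miRNAs of the miR-35 family, 8 in all, summed to 111983.8 and 43988.7 CPM (counts scaled to the same miRNA total in every library) in ebax-1(tm2321) gravid adults and to 35363.2 and 21705.7 CPM in wild-type gravid adults. In germline-depleted adults carrying glp-4(bn2), an allele that leaves few germ cells at the restrictive temperature, they summed to 13643.3 and 17132.8 CPM with ebax-1(tm2321) and to 596.7 and 1557 CPM without it, so within each ebax-1 genotype both gravid libraries lay above both germline-depleted ones. The study reports that miRNAs of this family themselves rise when EBAX-1 is lost, so their sums do not compare germline content between ebax-1 genotypes. The sums come from the miRNA counts, so they do not check which libraries the piRNA counts came from. The 2 ebax-1(tm2321) gravid libraries stood further apart than the wild-type ones. The chi-square of their piRNA counts was 18.9 per degree of freedom in ebax-1(tm2321) and 5.65 in wild type, where 1 is sampling noise. The part of that spread in the results below was not tested.

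Most of these piRNAs were read in at least 1 library. Among the 2919, 884 had a 0 in exactly 1 library, 616 in 2, 575 in 3 and 844 in all 4. The shallower a library was, the more piRNAs it missed. In ebax-1(tm2321) animals, 2196 piRNAs (14.3%) were at 0 in replicate 1 and 1711 (11.1%) in replicate 2, against 1954 (12.7%) and 1356 (8.83%) in the wild-type replicates 1 and 2. In order of depth the 4 libraries had 2196, 1954, 1711 and 1356 piRNAs at 0, so a wild-type and an ebax-1(tm2321) library alternated along that order. A count of 0 does not show that a piRNA was not made. It allows up to 3 reads, which is 1.74 and 1.11 CPM, here scaled by total piRNA counts, in the ebax-1(tm2321) replicates 1 and 2, and 1.44 and 0.766 CPM in the wild-type replicates 1 and 2. These limits cover counting error only.

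To set the libraries at the same depth, the number of piRNAs expected at 0 was calculated for 1722996 counts drawn from each library. The ebax-1(tm2321) libraries then had 2196 and 2094 piRNAs at 0 and the wild-type libraries 2130 and 2021. The gap between replicates of a genotype was thus larger than the gap between genotypes, and the ranges overlapped. With the 2 libraries of a genotype summed, 1341 piRNAs were at 0 in ebax-1(tm2321) and 1122 in wild type. When the summed wild-type counts were thinned to the summed ebax-1(tm2321) counts, 1303 piRNAs were expected at 0 in wild type, beside the 1341 in ebax-1(tm2321).

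**Figure D1:**
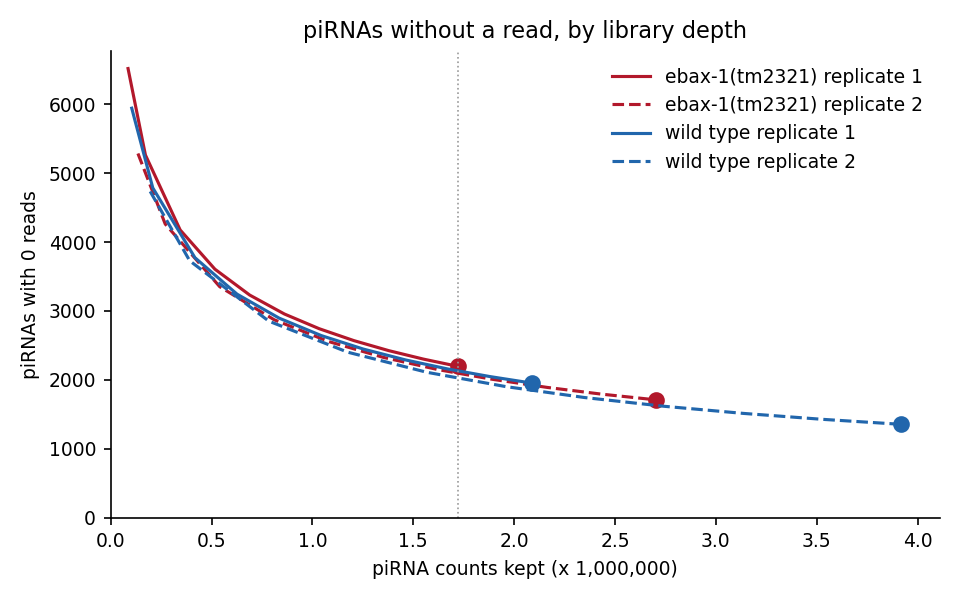
The plot gives the number of piRNAs with 0 reads (y axis) against the piRNA counts kept (x axis), for each ebax-1(tm2321) library (red) and each wild-type library (blue). Points mark the full libraries, from 2196 piRNAs at 0 in ebax-1(tm2321) replicate 1 to 1356 in wild-type replicate 2, and the lines, calculated by thinning, lie close together at the dotted line of 1722996 counts.

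Most piRNAs with a 0 held few reads, although 283 had 10 or more in all and the highest had 252. Together they took 1173 counts, or 0.0681% (95% Wilson interval 0.0643% to 0.0721%), of ebax-1(tm2321) replicate 1 and 2935 counts, or 0.109% (0.105% to 0.113%), of replicate 2. In wild type they took 2037 counts, or 0.0975% (0.0934% to 0.102%), of replicate 1 and 5024 counts, or 0.1282% (0.1247% to 0.1318%), of replicate 2. The intervals cover counting error only, treat reads as independent molecules and are narrower than the spread between replicates. Their median total over the 4 libraries was 2 reads, and 1869 of them (64.0%) had 3 reads or fewer. The 12444 piRNAs with reads in every library had a median total of 331. At the edge of the rule, the 884 piRNAs with a 0 in 1 library had a median total of 7 reads, and the 874 piRNAs just outside it, with a lowest count of 1, had a median total of 12.

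With all 4 libraries, 497 piRNAs had 0 reads in both ebax-1(tm2321) libraries only and 278 in both wild-type libraries only, but this order depended on the libraries. It turned without wild-type replicate 2, to 240 without ebax-1(tm2321) reads and 853 without wild-type reads, and without wild-type replicate 1, to 404 and 419. Without ebax-1(tm2321) replicate 1 the numbers were 788 and 199, and without its replicate 2 they were 1206 and 132. The direction of these shifts was fixed by the rule. A genotype with a library left out needs a 0 in 1 library only, so its class can only grow and the other can only shrink. With every library thinned to 1722996 counts, 471.4 piRNAs were expected without ebax-1(tm2321) reads only and 432.9 without wild-type reads only. Most members of either class rested on a read or so. In the first class 255 of 497 (51.3%) had 1 read in all, and 76 had 4 or more wild-type reads. In the second, 180 of 278 (64.7%) had 1 read in all, and 12 had 4 or more ebax-1(tm2321) reads. Reads in both libraries of the genotype in which they were found were seen for 147 of the 497 and for 53 of the 278.

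The size of each class was then set against depth. The ebax-1(tm2321) libraries held 42.4% of all piRNA counts and the wild-type libraries 57.6%, so a piRNA with few reads will often have them all in 1 genotype. If every read fell by these shares, 457.4 piRNAs would have no ebax-1(tm2321) read and 273.7 would have no wild-type read, beside the 497 and 278 counted. At 1 to 3 total reads, 421 piRNAs had no ebax-1(tm2321) read where 407.5 were calculated, and 266 had no wild-type read where 262.3 were calculated. At 4 to 9 reads, 71 had no ebax-1(tm2321) read where 48.7 were calculated, while 12 had no wild-type read where 11.3 were calculated. Between 10 and 20 reads the observed and calculated numbers were 2 and 1.15 without ebax-1(tm2321) reads, and 0 and 0.0416 without wild-type reads. Above 20 reads, 3 piRNAs had no ebax-1(tm2321) read where 0.00135 were calculated, and none lacked wild-type reads.

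The same calculation within a genotype, on the total reads of its 2 libraries, also left an excess in the deeper replicate. Of piRNAs with 4 to 9 ebax-1(tm2321) reads, 133 had all of them in the deeper replicate 2 against 90.9 calculated from the depths of the 2 replicates, and of those with 10 to 20 reads 20 did, against 2.28. In wild type the numbers were 147 against 117.7 at 4 to 9 reads, and 14 against 5.34 at 10 to 20. From 4 to 20 reads the excess within either genotype was thus at least as large, in number of piRNAs, as that between the genotypes. The calculated numbers differ between these comparisons, so this does not rank the excesses in proportion. Above 20 reads, 1 piRNA of each genotype had all its reads in replicate 2, against 0.00624 calculated in ebax-1(tm2321) and 0.0262 in wild type. Between the genotypes it was 3 against 0.00135.

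**Figure D2:**
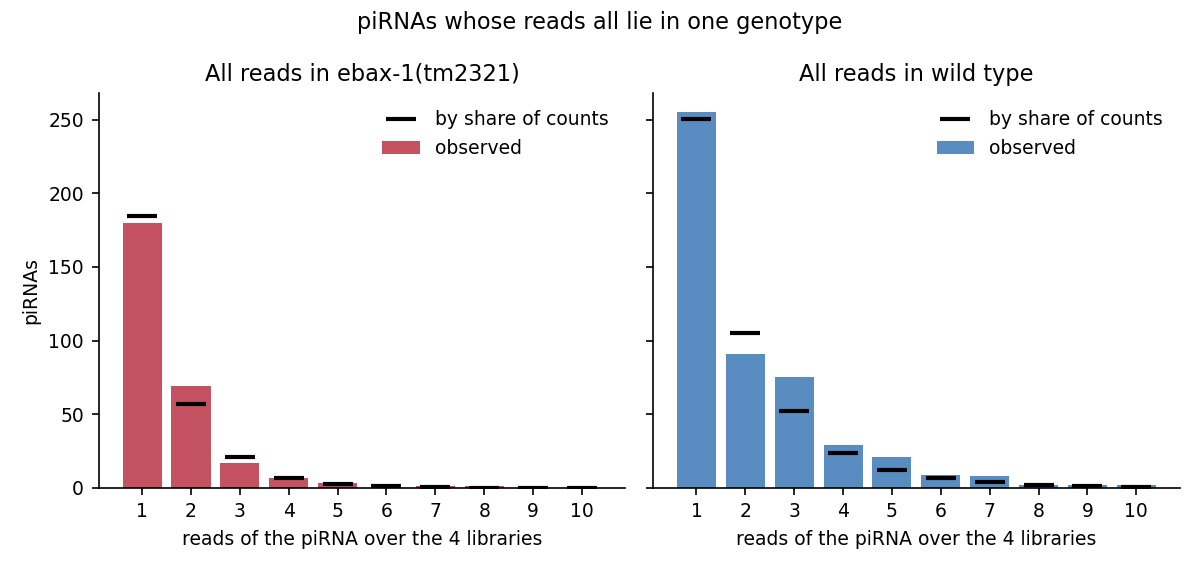
Bars count the piRNAs (y axis) whose reads all lay in ebax-1(tm2321) (left, red) or in wild type (right, blue), by their total reads over the 4 libraries (x axis, 1 to 10). Black marks give the number calculated from the genotype's share of counts, which for 1 read is 184.5 in ebax-1(tm2321), with 180 observed, and 250.5 in wild type, with 255 observed.

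The excess of piRNAs without ebax-1(tm2321) reads lay largely in an interval of chromosome IV that the study of these animals singled out from the same libraries, so its content is no independent evidence. In gravid adults with another allele, ebax-1(ju699), the study did not see the piRNAs of the interval lowered in the same way. It proposed a second mutation of the ebax-1(tm2321) line, apart from ebax-1, which was not tested here. In genome build WBcel235 the table has 616 piRNAs in the interval, the first starting at position 4767704 and the last ending at 5217244. In the interval 183 piRNAs (29.7%) had a 0, against 15.6% on the rest of chromosome IV. It held 52 of the 497 piRNAs without ebax-1(tm2321) reads (10.5%) and 6 of the 278 without wild-type reads (2.16%), while it holds 4.01% of the table. By depth alone 20.8 and 11.7 were calculated for it. At 4 to 9 reads, 21 of its 70 piRNAs had no ebax-1(tm2321) read, against 3.41 calculated, and none lacked wild-type reads, against 0.802 calculated. On the rest of chromosome IV the numbers at 4 to 9 reads were 42 observed and 39.5 calculated without ebax-1(tm2321) reads, and 12 observed and 9.08 calculated without wild-type reads. On the other chromosomes, 8 lacked ebax-1(tm2321) reads against 5.79 calculated, and none lacked wild-type reads against 1.40 calculated.

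The 10 piRNAs without ebax-1(tm2321) reads that had the highest wild-type counts began with 3 that stood well above the others. 21ur-9310 had 0 and 0 reads in the ebax-1(tm2321) replicates, against 77 and 175 reads, or 36.9 and 44.7 CPM, in the wild-type replicates. The fold bounds given here take wild-type reads as exact and set a floor of 3 reads over both ebax-1(tm2321) libraries. By that floor 21ur-9310 was at least 61.9-fold lower in ebax-1(tm2321). It lies on chromosome IV from 16002216 to 16002236 on the minus strand, in an intron of jac-1, a gene of the p120-catenin family transcribed from the same strand, and far from the interval above. Its neighbours kept their reads. The nearest, 21ur-101, 134 bases away on the same strand, had 106 and 399 reads in ebax-1(tm2321) against 192 and 267 in wild type, and 21ur-7853, 258 bases to the other side, had 10 and 36 against 11 and 41.

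21ur-13885 had 0 and 0 reads in ebax-1(tm2321), against 10 and 32 in wild type, at least 10.3-fold lower. It lies on chromosome IV from 5604258 to 5604278 on the plus strand, in an intron of the forkhead transcription factor gene fkh-7. Here too the flanking piRNAs were read in every library. 21ur-10524, 138 bases away, had 36 and 72 reads in ebax-1(tm2321) against 35 and 95 in wild type, and 21ur-6602, 843 bases to the other side, had 20 and 32 against 25 and 54.

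21ur-6927 had 0 and 0 reads in ebax-1(tm2321), against 15 and 21 in wild type, at least 8.84-fold lower. It lies on chromosome IV from 5229212 to 5229232 on the plus strand, in an intron of thn-6, a thaumatin family gene, just beyond the end of the interval. Its surroundings were mixed. On the side of the interval 21ur-13900, 4680 bases away, had 0 and 2 reads in ebax-1(tm2321) against 5 and 21 in wild type. On the other side 21ur-8445, 273 bases away, had 9 and 49 against 36 and 64.

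Reads were counted only where all 21 bases matched the catalogue, so a strain that differs by a base within a piRNA gives 0 for it, and piRNAs of the same sequence cannot be told apart. Whether either applies to these 3 was not tested, as no sequence was analysed here.

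The next 7 had 7 to 10 wild-type reads in all, and at least a read in both wild-type libraries. 21ur-11733 had 3 and 7 wild-type reads, 21ur-12091 had 7 and 3, 21ur-15292 and 21ur-9896 had 1 and 8 each, 21ur-12190 had 2 and 6, 21ur-13578 had 3 and 5, and 21ur-11530 had 3 and 4, all against 0 and 0 in ebax-1(tm2321) in this class by its rule. Their bounds, again with wild-type reads taken as exact, ran from 1.72-fold to 2.46-fold. All 7 were picked by these same counts, so the bounds do not show a lower level. None was called in the edgeR fit described below. Of these 7, all but 21ur-9896 and 21ur-12190 lie in the interval. 21ur-13578, for example, is in an intron of soc-2, a leucine-rich repeat scaffold of Ras signalling.

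No piRNA without wild-type reads came near the counts of 21ur-9310, 21ur-13885 or 21ur-6927. The highest, 21ur-8631, had 4 and 4 reads in ebax-1(tm2321), or 2.32 and 1.48 CPM, against 0 and 0 in wild type. With the ebax-1(tm2321) reads taken as exact, a floor of 3 reads over both wild-type libraries gave a bound of 3.62-fold. This piRNA was picked by these same counts, so the bound does not show a higher level. It was not called in the edgeR fit. It lies on chromosome IV from 14243890 to 14243910 in an intron of Y64G10A.2. 21ur-7892 had 2 and 5 ebax-1(tm2321) reads. The other 8 of the 10 highest had 4 or 5 reads in all, and in 21ur-15457, 21ur-2555 and 21ur-15019 every read came from replicate 2, the deeper ebax-1(tm2321) library. All 10 lie on chromosome IV and none in the interval.

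Among the remaining 1300 piRNAs, a 0 in 1 library alone was most often a 0 in the shallowest. That library, ebax-1(tm2321) replicate 1, was the lone 0 for 426 piRNAs, and replicate 2 was for 158, against 250 and 50 for the wild-type replicates 1 and 2. The 5 with the highest totals show how the replicates could part. 21ur-11312 had 0 and 12 reads in ebax-1(tm2321) against 24 and 42 in wild type, and 21ur-10967 had 0 and 9 against 12 and 28, and both lie in the interval. In 21ur-9115, in an intron of eps-8, the counts were 0 and 31 in ebax-1(tm2321) against 11 and 28 in wild type, and in 21ur-15548 they were 0 and 18 against 13 and 14. For these 2 the second ebax-1(tm2321) library reached or passed the wild-type counts. 21ur-5147 had its 0 in wild type, with 10 and 12 reads in ebax-1(tm2321) against 0 and 17 in wild type.

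Just outside the rule, the 3 piRNAs with a lowest count of 1 and the highest totals all lie in the interval. 21ur-756 had 1 and 25 reads in ebax-1(tm2321) against 46 and 66 in wild type. 21ur-3769 had 1 and 8 against 30 and 65, and 21ur-9051 had 1 and 13 against 16 and 32. In each of the 3 both ebax-1(tm2321) counts were below both wild-type counts.

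**Figure D3:**
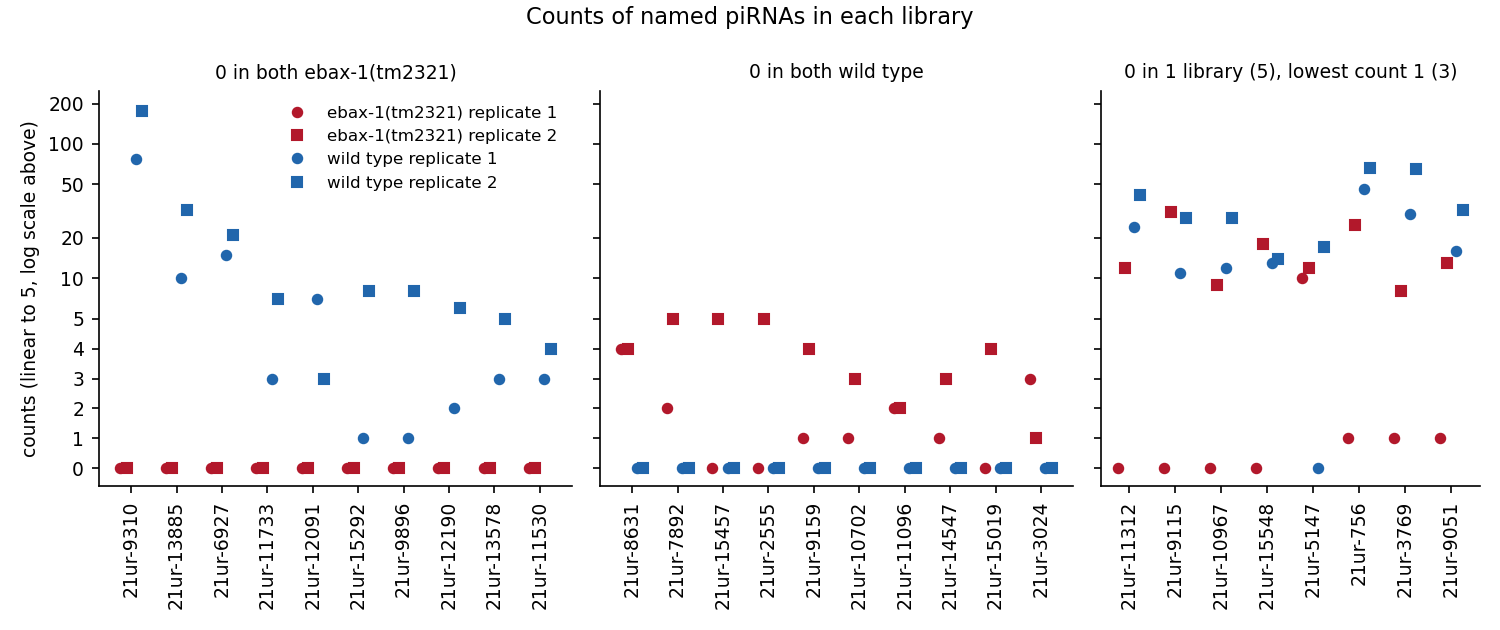
Counts (y axis, linear to 5 and on a log scale above) of named piRNAs (x axis) in the ebax-1(tm2321) libraries (red) and the wild-type libraries (blue), with circles for replicate 1 and squares for replicate 2. The left panel starts with 21ur-9310 at 77 and 175 wild-type reads, while the highest count in the middle panel is 5, and the right panel holds 5 piRNAs with a 0 in 1 library and 3 whose lowest count is 1.

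Across the whole table, edgeR's quasi-likelihood test was fitted to the 14519 piRNAs with at least 1 read, which leaves out the 844 with none. At an adjusted p of 0.05, 57 piRNAs (0.393%) were lower in ebax-1(tm2321) and 0 (0%) were higher. The number lower was 54 with the scaling of DESeq2 and 39 with miRNA totals as library size. It was 62 with edgeR's own expression filter and 42 with a read required in every library. That count rested on the setting, with 9 lower under library size alone and 9 under a replicate block. It also moved with each library left out, but such a fit takes the spread from the other genotype alone. Those calls are therefore not given. Of the 2075 fitted piRNAs with a 0, 3 were among the lower ones, namely 21ur-9310, 21ur-13885 and 21ur-6927, and 0 among the higher ones. The 3 became 6 without ebax-1(tm2321) replicate 1, 8 without replicate 2, 2 without wild-type replicate 1 and 1 without wild-type replicate 2. Since the rule used this contrast, nothing is read from that count. At an unadjusted p below 0.05, 54 of the 2075 were lower and 8 higher, against 419 lower and 58 higher of the 14519 over the table. Both shares were close to those of the table. DESeq2 also called 0 higher over the table, with 77 lower. It called 1 of the 3 lower, 21ur-9310. The other 54 piRNAs called lower by edgeR had reads in every library. A filter that asks for a read in every library takes all 2919 away before any test.

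Where a piRNA lies went with whether it was read. Positions came from Ensembl and RefSeq annotation of WBcel235, the build of the files. Chromosome IV holds 14714 of the 15363 piRNAs, and 2376 of them (16.1%) had a 0. The other chromosomes hold 649, of which 543 (83.7%) had a 0 and 251 (38.7%) had 0 in all 4 libraries. The share with a 0 was 84.7% of 98 on chromosome I, 89.0% of 109 on II, 83.3% of 78 on III, 79.7% of 202 on V and 84.6% of 162 on X, so no chromosome but IV came below 79.7%. The median piRNA had 1 read over the 4 libraries off chromosome IV and 207 on it.

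On chromosome IV itself the share depended on how crowded the piRNAs were. In the 13 windows of 500 kb with 200 or more piRNAs, 2203 of 14379 (15.3%) had a 0, with a range of 11.3% to 31.0% over windows. In the 21 windows with fewer, 173 of 335 (51.6%) had a 0. Within the chromosome the piRNAs with a 0 nevertheless lay closer to another entry than the rest. The median distance to the nearest other piRNA of the table was 34 bases for piRNAs with 0 in all 4, 4 for those without ebax-1(tm2321) reads, 5 for those without wild-type reads, 4 for the remaining piRNAs with a 0 and 76 for those with reads in every library.

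Many catalogue entries overlap, with starts a few bases apart on the same strand, and low entries often lay on a well-read one. Of 2914 piRNAs with a 0 that had a single Ensembl position, 1254 (43.03%) overlapped another entry, against 39.8% of those with no 0. The classes differed among themselves, with 33.2% for 0 in all 4, 43.8% for 0 in both ebax-1(tm2321) libraries only, 39.4% for 0 in both wild-type libraries only and 49.9% for the remaining piRNAs with a 0. The 5′ ends lay within 3 bases of another entry's for 36.1% of the piRNAs with a 0 and 35.6% of those with no 0. In the class with 0 in all 4 the share was 26.6%. All these shares pool the chromosomes, and 251 of the 844 with 0 in all 4 lie off chromosome IV, against 106 of the 12444 with no 0. There the median distance to the nearest piRNA was 43723 and 29388 bases. The mix of chromosomes thus enters the shares, and shares on chromosome IV alone were not calculated. In 1066 of the 1254 overlapping piRNAs with a 0 (85.0%) the partner had at least 10 times the reads, against 27.7% of overlapping piRNAs with no 0. That ratio follows in part from the low counts that chose them. An example is 21ur-7892, with 7 reads in all, which starts 4 bases from an entry with 1288 reads.

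By gene structure, 464 of 1108 piRNAs (41.9%) that overlap an exon of another gene had a 0, against 860 of 5207 (16.5%) within introns and 1595 of 9048 (17.6%) between genes. The gap was present on chromosome IV, at 30.5% of 869 in exons, 14.4% of 5057 in introns and 15.7% of 8788 between genes. Off chromosome IV the shares were 83.3% of 239, 87.3% of 150 and 81.9% of 260, with no such gap. On the plus and minus strands the shares were 19.4% and 18.6%.

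Counts also went with the number in a piRNA's name. Entries are named 21ur- and a running number. Of the 7528 with a number over 8000, 2555 (33.9%) had a 0, and of the 7835 with a number up to 8000, 364 (4.65%) did. The median total was 26 reads for numbers over 8000 and 674 reads for numbers up to 8000. In blocks of 1000 numbers the share with a 0 was between 2.05% and 7.11% in the first 8 blocks and reached 63.2% for numbers 14001 to 15000 and 63.6% above 15000. The split at 8000 was set after seeing these shares. The higher block numbers also hold nearly all piRNAs off chromosome IV, since 99.96% of those numbered up to 8000 and 91.4% of the others lie on IV.

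**Figure D4:**
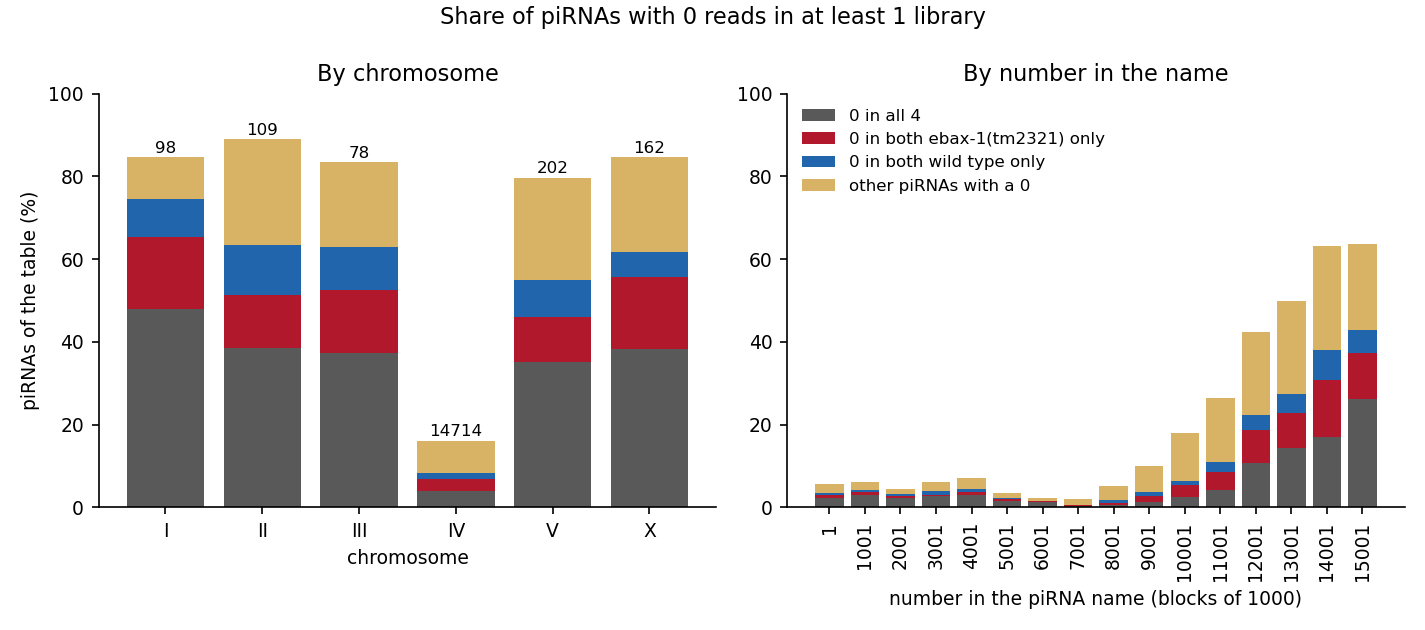
Stacked bars give the percentage of table piRNAs (y axis) in each class with a 0, by chromosome (left, with the number of piRNAs above each bar) and by number in the name (right, labelled by the first number of each block of 1000). Chromosome IV stands at 16.1% and no other chromosome below 79.7%, and the bars by name rise to 63.6%.

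Among low-numbered entries, those with a 0 were often unread altogether. Of the 364 with a 0 and a number up to 8000, 162 (44.5%) had 0 in all 4 libraries, against 26.7% of those with higher numbers. These unread entries were gathered in 2 stretches of chromosome IV, found as 50-kb windows where 20% or more of at least 50 piRNAs had 0 in all 4 and chosen after their values were seen. The stretches hold 612 piRNAs, 4.16% of those on the chromosome, but 180 (30.4%) of its piRNAs with 0 in all 4. Of the low-numbered ones on chromosome IV with 0 in all 4, 134 of 161 (83.2%) lie there.

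The first stretch, from 6000001 to 6050000, has 107 piRNAs, of which 95 (88.8%) had a 0 and 65 (60.7%) had 0 in all 4. Its median piRNA had 0 reads over the 4 libraries, although 12 entries were read in every library and the highest had 1199 reads. It lacked reads in both genotypes alike, with 10 piRNAs without ebax-1(tm2321) reads alone and 8 without wild-type reads alone. Of its piRNAs, 76 lie in introns. In pqn-22, a gene for a protein with a glutamine- and asparagine-rich domain, 33 of 41 piRNAs had 0 in all 4, and in kcc-2, a potassium chloride cotransporter gene, 15 of 30 did. The longest run of neighbours with 0 in all 4 on the chromosome was here, 13 piRNAs from 6028842 to 6033191, followed by a run of 12 from 6016868 to 6021582.

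The second stretch, from 16600001 to 16750000, has 505 piRNAs, of which 235 (46.5%) had a 0 and 115 (22.8%) had 0 in all 4. Its median piRNA had 12 reads, and 270 of its piRNAs were read in every library, so read and unread entries were interspersed. Here 440 of the 505 lie between genes, with 29 inside sta-1, a STAT family transcription factor gene, of which 4 had 0 in all 4. It had 24 piRNAs without ebax-1(tm2321) reads alone and 20 without wild-type reads alone.

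On the rest of chromosome IV, 413 of 14102 piRNAs (2.93%) had 0 in all 4, and among its 7487 low-numbered piRNAs only 27 (0.361%) did. Outside the stretches a piRNA with 0 in all 4 was followed along the chromosome by another in 3.39% of cases, near the 2.93% of all piRNAs there, whereas with the stretches included it was 14% against 4.03%. Entries of the same sequence, which full-length matching cannot tell apart, were not looked for here, and their part in the stretches was not tested.

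**Figure D5:**
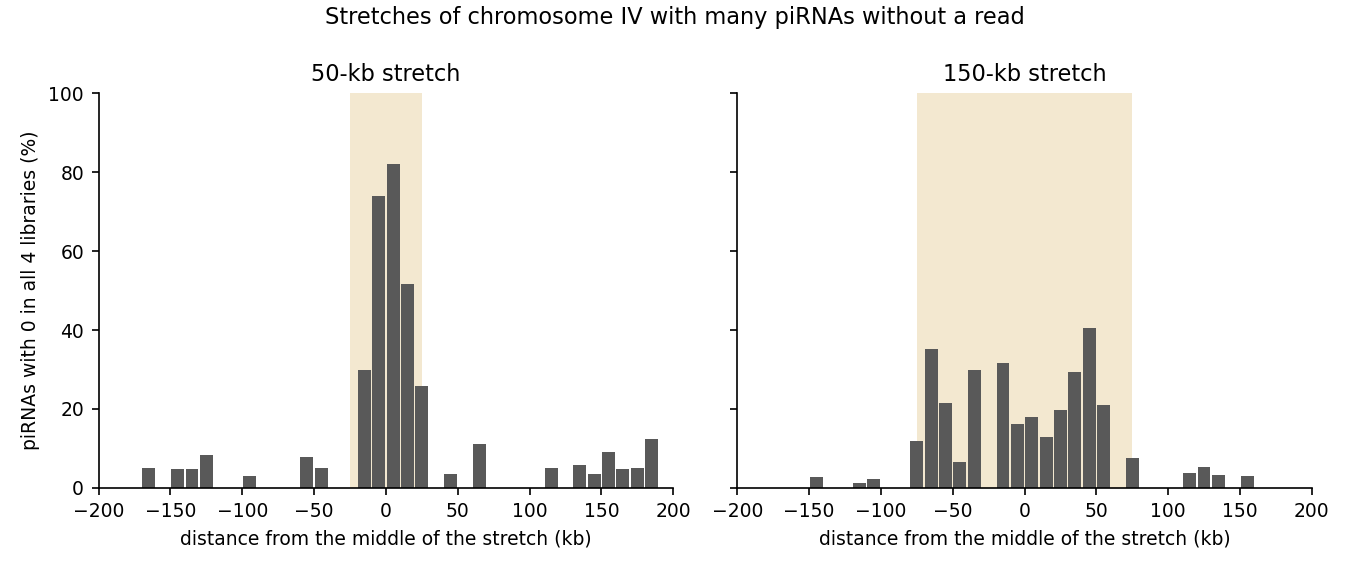
Bars give the percentage of piRNAs with 0 in all 4 libraries (y axis) in steps of 10 kb, by distance in kb from the middle of each stretch (x axis), with the stretch shaded. The 50-kb stretch (left, 60.7% over the whole stretch) and the 150-kb stretch (right, 22.8%) stand above their flanks, where the rest of the chromosome averages 2.93%.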

How the data were processed

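The authors trimmed adaptors with cutadapt and the FastX toolkit, kept reads with base quality of at least 30 at 100% of bases, and counted reads that matched 1 of 15363 full-length piRNAs. The deposited values are raw counts. Column names give strain and a letter, and they were assigned to the gravid adult libraries from the study's text. Deposited miRNA counts matched the first 19 bases and served for the stage check and as another depth. Totals were 1722996 to 3918670 piRNA counts, and 0 sample columns were left unused.

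Expected numbers came from hypergeometric thinning and from shares of counts, without random draws. The whole-table fit used edgeR 4.0.16 (TMM, quasi-likelihood, Benjamini-Hochberg) in R 4.3.3 on piRNAs with at least 1 read, with genotype as its term, and DESeq2 1.42.0 as an alternative. It was tested on simulated data with changes planted only in well-read piRNAs, so that test does not cover most piRNAs of low counts. Other alternatives were other scalings, filters, a replicate block and each library left out. Of the names, 15339 were found once in Ensembl annotation and 24 were placed by RefSeq, all on WBcel235.

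The rule named 10 piRNAs with 0 in both ebax-1(tm2321) and 10 with 0 in both wild-type libraries by summed counts, 5 of the remaining and 3 just outside. Members and lists were chosen with earlier results of these data known. Sequences were not analysed here.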

Additional observations from a re-analysis of the deposited data

How the results depend on the processing

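With 2 libraries per genotype, classes built from 0 counts depended on which libraries were at hand. Leaving out each library in turn gave 2493 to 2869 piRNAs with a 0, 923 to 1101 with 0 in all libraries left, 240 to 1206 with 0 in ebax-1(tm2321) only, 132 to 853 with 0 in wild type only and 433 to 909 of the remaining kind. Without either wild-type library the piRNAs without ebax-1(tm2321) reads were fewer than those without wild-type reads, the reverse of the order with all 4. The rule fixes the direction of such shifts, since a genotype with a library left out then needs fewer libraries at 0. The highest numbers for a genotype came when its deeper replicate 2 was the one left out. Thinning to the smallest piRNA total gave 471.4 piRNAs without ebax-1(tm2321) reads only and 432.9 without wild-type reads only, and thinning to equal miRNA counts gave 486.9 and 472.2. Taking at most 1 read as none gave 1592 piRNAs with none in all 4. Of 45 class counts recomputed, 33 stayed within 1.5 times the value given. Leaving out the 2 stretches, which was chosen after seeing the data, gave 664 piRNAs with 0 in all 4 and moved no class beyond that.

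Over the whole table, 57 piRNAs were lower with TMM, 9 with library size alone and 77 with DESeq2. Leaving out each library gave 1 to 467 lower and 0 to 131 higher. Of the piRNAs with a 0, 3 were lower, 1 with DESeq2 and 1 to 8 when each library was left out. With the replicate number as a block, 9 piRNAs were lower over the table and 3 of those with a 0. Over the 12444 piRNAs with reads in every library, the deviation of replicate 1 from its genotype mean correlated at -0.0868 between the genotypes. The replicate numbers were therefore not taken to pair the libraries. Of 84 fitted fold changes recomputed for named piRNAs, 82 kept direction and side of the threshold, and 21ur-13885 and 21ur-6927 lost the call with DESeq2. Much of this was fixed in advance. A prior count of 2, added before the ratio is taken, leaves the p-value as it was, and a genotype at 0 by the rule fixes the direction. Sizes did move, as for 21ur-9310 from a log2 fold change of -9.774 to -5.799 with that prior count. Requiring a read in every library leaves none of the piRNAs with a 0.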
